A study of Mus musculus with 9 samples.

Results

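Glutamine use and amino acid synthesis was followed through 9 genes of ST2 cells, a mouse marrow stromal line used as a model of osteoblast differentiation. The genes were chosen by name and comprise 2 carriers (Slc1a5 and Slc38a2), 2 enzymes that make or break glutamate (Glul and Glud1), 3 transaminases (Got1, Got2 and Gpt2) and 2 enzymes of amino acid synthesis (Asns and Psat1). They are 9 of the 54532 genes in the deposited table, and all 9 were among the 14004 genes with enough counts to be tested. Messenger RNA was measured by poly-A selected RNA sequencing in 9 libraries of wild-type cells, 3 in each of 3 groups. The first group (Veh) received vehicle and the second (rhWnt3a) 50 ng/ml recombinant human Wnt3a. The third group, rhWnt3aOSMI, received 20 µM OSMI, an inhibitor of the O-GlcNAc transferase OGT. By the title of these samples rhWnt3a was given too, as in the study's account of its results, whereas their treatment label names OSMI alone and no rhWnt3a dose. The study's sequencing methods also list OSMI without naming a combination with rhWnt3a. All cells were kept for 72 h. No group with OSMI alone was analysed here, so the part of OSMI can be read only on top of rhWnt3a, in a single cell line.

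Glutamine enters cells through carriers such as SLC1A5 and SLC38A2, and is made from glutamate and ammonia by glutamine synthetase (Glul). Glutamate in turn either loses its amino group through glutamate dehydrogenase (Glud1) or hands it to a keto acid through a transaminase. ASNS takes the amide nitrogen of glutamine to make asparagine, and PSAT1 takes the amino group of glutamate to make phosphoserine, the step between PHGDH and PSPH in serine synthesis. Several of these genes, among them Asns, Psat1 and Slc38a2, are known targets of ATF4, the transcription factor of the amino acid response. Osteoblast precursors are known to use glutamine as a source of carbon and nitrogen, and Wnt signalling is known to alter that use.

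The libraries held 16135898 to 17583945 counts, and a gene with 3 counts would stand at 0.170 to 0.191 CPM, the count scaled by the size of its library. All 9 genes lay far above this floor, between 339 counts (Glul in rhWnt3aOSMI 3) and 12793 counts (Psat1 in rhWnt3aOSMI 2). Axin2, a target gene of Wnt signalling, had 4, 14 and 10 counts in Veh, 355, 296 and 315 in rhWnt3a and 203, 185 and 297 in rhWnt3aOSMI, so it was high in the third group too, whose titles name rhWnt3a. Of 11 stromal marker genes 10 were tested, and their summed level was 22730 to 29320 CPM in Veh, 18240 to 21030 in rhWnt3a and 9277 to 17480 in rhWnt3aOSMI. Of these 10, 1 was called higher and 4 lower with rhWnt3a, 0 and 4 with rhWnt3aOSMI against rhWnt3a, and 1 and 6 against vehicle. Among 6 osteoblast markers, Runx2 and Col1a1 alone had enough counts to be tested, and 1 of these 2 was lower in rhWnt3aOSMI than in vehicle. Summed markers of blood and of endothelial cells did not exceed 2.04 and 2.80 CPM in any library, and Ptprc, which marks white blood cells, had 0 to 2 counts. Summed cartilage markers fell from 427 to 571 CPM in Veh to 95.2 to 122 in rhWnt3a, with 5 of 5 tested genes lower. Summed adipocyte markers stood at 64.9 to 83.2 CPM in Veh and 33.0 to 43.8 in rhWnt3a, with 3 of 4 tested genes lower. Ogt RNA was 1.56-fold higher in rhWnt3aOSMI than in vehicle (edgeR adjusted p = 0.0348), a level that does not measure the activity OSMI blocks. Whether these shifts have a part in the results below was not tested, and in bulk RNA fewer cells of a type cannot be told apart from less RNA per cell.

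Among replicates, 3 libraries (Veh 3, rhWnt3a 2 and rhWnt3aOSMI 3) stood apart from the other 2 of their group. The mean squared log2 difference over all tested genes was 0.373 to 0.454 in pairs with such a library and 0.111 to 0.119 in the other pairs. Once group means were removed, a single axis held 54.8% of the variance, with Veh 3, rhWnt3a 2, rhWnt3aOSMI 1 and rhWnt3aOSMI 2 on one side and the other 5 libraries on the opposite side. Results are therefore given with and without these 3 libraries. They were picked by their distance from their replicates in these same data, so the spread that remains is reduced by that choice. P-values without them tend to be too low and are given as a description. Once the 3 libraries are left out, the 2 libraries of rhWnt3aOSMI lie on the opposite side of the axis from the 4 others. In that selection, group and side therefore cannot be told apart in the comparisons with rhWnt3aOSMI. Differences within each side are given beside such values. They were added after the data had been seen, rest on 1 or 2 libraries per group and carry no test. A side is relative to the mean of the library's own group, so libraries of different groups on the same side need not be alike. Where groups do not overlap, both sides must give the same sign.

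Scaled by the gene length of the deposited table, Asns was the most abundant of the 9 genes in vehicle-treated cells. It had 134 ± 37.2 RPKM, the CPM per kilobase of gene (mean ± SD, n = 3). Got1 (86.4 ± 24.8 RPKM) and Psat1 (86.1 ± 9.18 RPKM) followed. The carriers Slc1a5 and Slc38a2 stood at 72.0 ± 5.31 and 68.0 ± 5.59 RPKM. Glud1, Gpt2 and Got2 were close together at 48.3 ± 8.19, 46.0 ± 1.79 and 45.8 ± 5.50 RPKM. Glul was the lowest, at 8.15 ± 0.931 RPKM. In this order Psat1 and Slc1a5, Slc38a2 and Glud1, and Got2 and Glul did not overlap between any libraries of the vehicle group, while every other pair of neighbours did. With rhWnt3a, Psat1 moved to the top with 150 ± 9.59 RPKM, next to Asns at 130 ± 18.6 RPKM. The order depends on the length used. Gene length exceeded that of the longest annotated transcript to unlike degrees, with 4254 against 2617 bases for Psat1 and 2539 against 2058 for Got1. For Got2 it was 4824 against 2530 bases.

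Whether rhWnt3a, and OSMI on top of it, altered the RNA of these genes was tested with edgeR's quasi-likelihood test over all 14004 genes, and a gene was called where its Benjamini-Hochberg adjusted p was under 0.05 and its log2 fold change exceeded 0.5 in size. With rhWnt3a against vehicle, Psat1 was called higher and no gene of the 9 was called lower, where 2.92% of all tested genes were called higher and 5.86% lower. With rhWnt3aOSMI against rhWnt3a none of the 9 was called, with 0 also at an unadjusted p under 0.05 and 0 by DESeq2, where 1.69% of all tested genes were called higher and 3.05% lower. With rhWnt3aOSMI against vehicle, Psat1 was again called higher and none lower, against 4.84% and 9.34% of all tested genes. The 3 comparisons share libraries, so the 2 calls of Psat1 rest on the same vehicle samples. The median log2 fold change of the 9 genes was −0.046, −0.083 and −0.0029 in the 3 comparisons, and that of all tested genes 0.037, −0.015 and −0.0077.

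**Figure D1:**
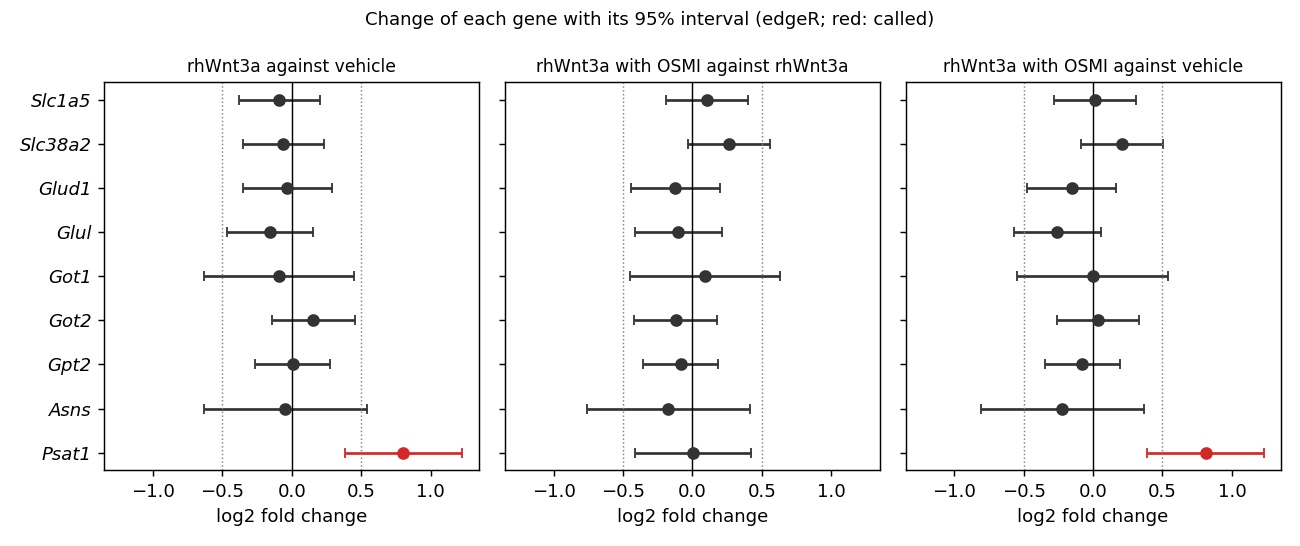
Log2 fold change (x axis) of each of the 9 genes (rows) in the 3 comparisons, with the 95% interval from edgeR as a bar, dotted lines at a log2 fold change of 0.5 in either direction, and called genes in red. Psat1 lies at 0.80 and 0.81 against vehicle, and the intervals of the other 8 genes cross 0 in every comparison.

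Psat1 encodes phosphoserine aminotransferase and lies on chromosome 19 (15904678 to 15947337, minus strand, GRCm38). It had 331, 360 and 408 CPM in the Veh libraries, 619, 687 and 613 CPM in rhWnt3a, and 724, 734 and 470 CPM in rhWnt3aOSMI. All 6 libraries with rhWnt3a lay above all 3 vehicle libraries, and rhWnt3aOSMI 3 was the lowest of these 6. The level rose 1.75-fold with rhWnt3a (log2 fold change 0.80, SE 0.188, 95% interval 0.38 to 1.22, edgeR adjusted p = 0.0249). It was 1.75-fold higher in rhWnt3aOSMI than in vehicle (log2 fold change 0.81, SE 0.188, 95% interval 0.39 to 1.23, edgeR adjusted p = 0.0178). Between rhWnt3aOSMI and rhWnt3a the log2 difference was 0.0070, with a 95% interval from −0.41 to 0.42 (edgeR adjusted p = 0.986), that is, a fold between 0.753 and 1.34. With the 3 libraries that stood apart left out it was 0.24 (adjusted p = 0.00862, short of the fold threshold), and within the 2 sides of the replicate axis it was −0.39 and 0.086, of opposite sign.

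The call of Psat1 with rhWnt3a was lost when any of Veh 1, Veh 2, rhWnt3a 1, rhWnt3a 2 or rhWnt3a 3 was left out (edgeR adjusted p from 0.0545 to 0.0989), while the log2 fold change stayed between 0.74 and 0.89. The call against vehicle in rhWnt3aOSMI was lost without Veh 1, Veh 2, rhWnt3aOSMI 1 or rhWnt3aOSMI 2 (adjusted p from 0.0552 to 0.0631). With Veh 3, rhWnt3a 2 and rhWnt3aOSMI 3 left out together, Psat1 was called in both comparisons. The log2 fold changes were 0.80 (edgeR adjusted p = 7.94e-09) and 1.04 (edgeR adjusted p = 1.47e-10). In the second, group and side cannot be told apart. Both p-values rest on libraries chosen for their likeness and do not offset the losses above. On the side of the replicate axis that holds Veh 1 and Veh 2, the log2 difference between rhWnt3a and vehicle was 0.84, and on the side of Veh 3 it was 0.75. For rhWnt3aOSMI against vehicle the values were 0.45 and 0.84. Since every treated library lay above every vehicle library, the positive sign on each side was fixed in advance.

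Since Psat1 was the called gene, its promoter is shown: the 250 bases before the transcript start in RefSeq, chr19:15925060-15925309 on the minus strand of GRCm38.p6, 5′ to 3′, with each CCAAT (in either orientation), the motif read by NF-Y, in capitals.
Psat1: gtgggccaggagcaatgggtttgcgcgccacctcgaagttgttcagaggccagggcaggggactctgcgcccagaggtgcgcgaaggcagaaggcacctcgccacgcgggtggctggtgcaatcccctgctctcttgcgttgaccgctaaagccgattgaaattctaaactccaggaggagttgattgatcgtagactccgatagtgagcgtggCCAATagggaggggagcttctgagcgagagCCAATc
Of 32851 promoter windows of this length, 33.8% held at least 1 CCAAT and 10.1% at least 2, as Psat1 did. Among the genes that were not called, Glul also had 2 and Got1 had 5, where 2.79% of all windows held at least 3, and the other genes in the promoter table had none. A second annotated start of Psat1 had none either. Both starts lie inside the gene as placed above, whose 5′ end on the minus strand is at 15947337. Neither window covers that end. The motif was chosen after the values had been seen, and its letters are a description of the window.

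**Figure D2:**
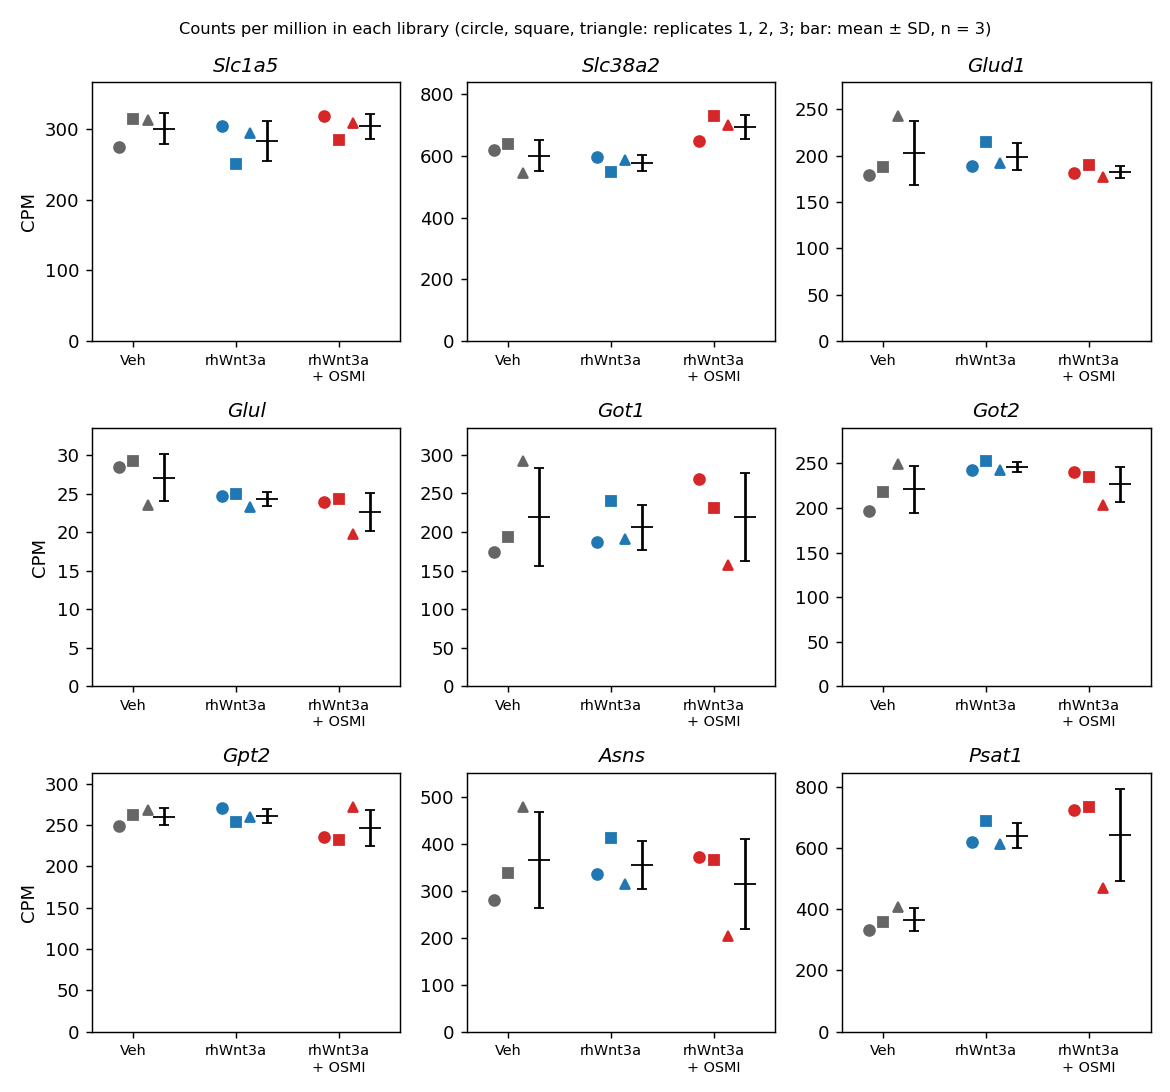
CPM (y axis, from 0) of the 9 genes in each library of the 3 groups (x axis), with symbols for replicates 1 to 3 and a bar for the mean ± SD (n = 3). Psat1 lies at 331 to 408 CPM in Veh and at 470 to 734 CPM in the 6 libraries with rhWnt3a, and in the other panels the vehicle and rhWnt3a groups overlap.

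Psat1 catalyses the middle step of serine synthesis, and the genes of the steps before and after it were not called. Phgdh, the entry enzyme, had 489, 599 and 902 CPM in Veh, 596, 828 and 585 in rhWnt3a, and 624, 599 and 380 in rhWnt3aOSMI. Psph, the phosphatase of the last step, had 87.8, 102 and 170 CPM in Veh, 125, 185 and 123 in rhWnt3a, and 155, 157 and 68.7 in rhWnt3aOSMI. Both overlapped between all groups, and both were highest in Veh 3 and rhWnt3a 2 within those groups and lowest in rhWnt3aOSMI 3. Their log2 fold changes with rhWnt3a were 0.013 (95% interval −0.59 to 0.62) and 0.27 (−0.50 to 1.03), so changes as large as that of Psat1 lie outside the first interval and inside the second. In the fit without the 3 libraries that stood apart, Phgdh stood at 0.083, 0.047 and 0.13 in the 3 comparisons and was not called, whereas Psph was called higher in rhWnt3aOSMI than in vehicle by 0.68 (edgeR adjusted p = 2.67e-07). Within the 2 sides of the replicate axis that difference of Psph was −0.46 and −0.13. For Phgdh the values within sides were 0.125 and −0.124 with rhWnt3a, and −0.637 and −0.436 for rhWnt3aOSMI against rhWnt3a. Against vehicle Phgdh in rhWnt3aOSMI stood at −0.512 and −0.56, lower on both sides.

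Within each library, the ratio of Psat1 to Phgdh counts was 0.677, 0.600 and 0.453 in Veh, 1.04, 0.830 and 1.05 in rhWnt3a, and 1.16, 1.23 and 1.24 in rhWnt3aOSMI. The 3 groups did not overlap. In rhWnt3aOSMI the ratio had an SD of 0.0425 around a mean of 1.21, although rhWnt3aOSMI 3 held far fewer counts of both genes than the other 2 libraries. The mean log2 ratio rose by 0.77 from vehicle to rhWnt3a, by 0.32 from rhWnt3a to rhWnt3aOSMI and by 1.09 from vehicle to rhWnt3aOSMI. The two-sided exact permutation p was 0.1 in each, the smallest that 3 against 3 libraries allow. Groups of 3 without overlap give this p whatever their distance, so it adds nothing to the lack of overlap. The ratio of Psat1 to Asns counts was 0.852 to 1.17 in Veh, 1.67 to 1.94 in rhWnt3a and 1.94 to 2.30 in rhWnt3aOSMI (exact permutation p = 0.1 in each comparison), although the highest rhWnt3a and the lowest rhWnt3aOSMI library differed by little. The ratio to Psph overlapped between vehicle and rhWnt3a (exact permutation p = 0.2) and between rhWnt3a and rhWnt3aOSMI (exact permutation p = 0.6), and did not between vehicle and rhWnt3aOSMI (exact permutation p = 0.1). From rhWnt3a to rhWnt3aOSMI the log2 fold change was 0.0070 for Psat1 itself, −0.325 for Phgdh and −0.175 for Asns, none called. The higher ratios in rhWnt3aOSMI than in rhWnt3a therefore do not show a further rise of Psat1. All these ratios were formed after the values had been seen.

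**Figure D3:**
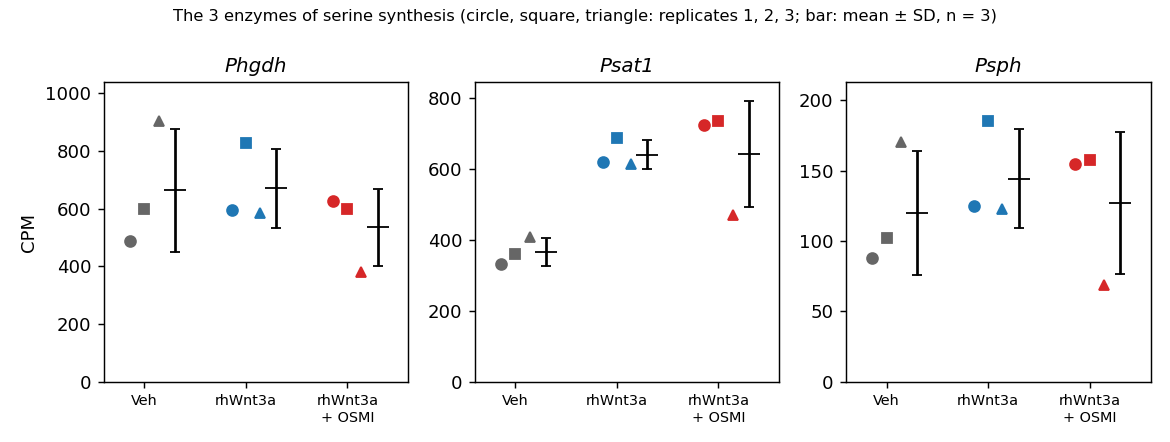
CPM (y axis, from 0) of the 3 enzymes of serine synthesis in each library of the 3 groups (x axis), with symbols for replicates and a bar for the mean ± SD (n = 3). Phgdh and Psph overlap between the groups, and Psat1 in Veh lies below the other 6 libraries.

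Asns encodes asparagine synthetase on chromosome 6 (7675169 to 7693254, minus strand). It had 282, 338 and 480 CPM in Veh, 337, 412 and 316 in rhWnt3a, and 373, 366 and 204 in rhWnt3aOSMI. The groups overlapped, and the highest and the lowest library of all 9 were Veh 3 and rhWnt3aOSMI 3. The log2 fold changes were −0.046 (95% interval −0.63 to 0.54) with rhWnt3a, −0.18 (−0.76 to 0.41) for rhWnt3aOSMI against rhWnt3a and −0.22 (−0.81 to 0.37) against vehicle, with edgeR adjusted p-values of 0.956, 0.709 and 0.603. Asns had the widest intervals of the 9 genes, and its interval for rhWnt3aOSMI against vehicle reached down to a fall as large as the rise of Psat1.

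The cytosolic aspartate transaminase gene Got1 lies on chromosome 19 (43499752 to 43524605, minus strand). It had 174, 193 and 291 CPM in Veh, 187, 240 and 191 in rhWnt3a, and 269, 231 and 157 in rhWnt3aOSMI. These groups overlapped too, and Veh 3 was again the highest and rhWnt3aOSMI 3 the lowest library. Its log2 fold changes were −0.093 (95% interval −0.63 to 0.45), 0.090 (−0.45 to 0.63) and −0.0029 (−0.54 to 0.54), with edgeR adjusted p-values of 0.904, 0.845 and 0.995.

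Got2, the mitochondrial counterpart of Got1, lies on chromosome 8 (95864134 to 95888547, minus strand) and was less variable. It had 196, 217 and 249 CPM in Veh, 243, 252 and 243 in rhWnt3a, and 241, 235 and 204 in rhWnt3aOSMI. The rhWnt3aOSMI libraries all lay below the rhWnt3a libraries, by a log2 difference of −0.12 (95% interval −0.42 to 0.18, edgeR adjusted p = 0.609). With rhWnt3a against vehicle the log2 fold change was 0.15 (−0.14 to 0.45, adjusted p = 0.634), and for rhWnt3aOSMI against vehicle 0.035 (−0.26 to 0.33, adjusted p = 0.885). Without the 3 libraries that stood apart, the value with rhWnt3a was 0.20 (edgeR adjusted p = 0.0250, short of the fold threshold), and within the 2 sides of the replicate axis it was 0.23 and 0.018. Over 72.5% of its transcript Got2 is matched at 97% identity or more by 3 other annotated genes, 2 predicted genes and the pseudogene Got2-ps1, so its counts are less certain than those of the others.

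Gpt2, the mitochondrial alanine transaminase, on chromosome 8 (85492576 to 85527560, plus strand), had the smallest spread of the 9 genes. It had 249, 263 and 268 CPM in Veh, 271, 253 and 259 in rhWnt3a, and 236, 231 and 272 in rhWnt3aOSMI. The groups overlapped in every comparison. Its log2 fold changes of 0.0065, −0.083 and −0.077 had 95% intervals that reached no further than −0.35 and 0.28, which excludes a change of the size seen for Psat1. With the 3 libraries that stood apart left out, the log2 difference of rhWnt3aOSMI was −0.19 from rhWnt3a (edgeR adjusted p = 0.0344) and −0.17 from vehicle (0.0367), short of the fold threshold. The 2 sides of the replicate axis differed in sign, with 0.039 and −0.12 from rhWnt3a and 0.090 and −0.20 from vehicle.

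Glud1, on chromosome 14 (34310727 to 34345265, plus strand), had 179, 188 and 243 CPM in Veh, 189, 215 and 193 in rhWnt3a, and 181, 190 and 177 in rhWnt3aOSMI. Its groups overlapped, with Veh 3 and rhWnt3a 2 above the rest. The log2 fold changes were −0.030 (95% interval −0.35 to 0.29), −0.12 (−0.44 to 0.20) and −0.15 (−0.47 to 0.17), none called by edgeR (adjusted p from 0.502 to 0.948, and from 0.650 to 0.827 without the 3 libraries that stood apart). Over 27.8% of its transcript Glud1 is matched by 2 other annotated genes.

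Glul, on chromosome 1 (153899944 to 153909723, plus strand), was the least expressed of the 9 genes. It had 28.5, 29.2 and 23.5 CPM in Veh, 24.8, 24.9 and 23.2 in rhWnt3a, and 23.9, 24.3 and 19.8 in rhWnt3aOSMI. Veh 1 and Veh 2 lay above all other libraries, whereas Veh 3 lay among those of the treated groups. The log2 fold changes were −0.16 (95% interval −0.47 to 0.16), −0.10 (−0.42 to 0.21) and −0.26 (−0.57 to 0.055), with edgeR adjusted p-values of 0.651, 0.684 and 0.248. In the fit without the 3 libraries that stood apart, the log2 fold change of Glul was −0.30 (edgeR adjusted p = 0.0209) with rhWnt3a and −0.30 (0.0169) in rhWnt3aOSMI, both against vehicle and both short of the fold threshold. The 2 sides of the replicate axis differed in sign, with −0.27 beside Veh 1 and Veh 2 and 0.082 beside Veh 3 for rhWnt3a, and −0.54 and 0.033 for rhWnt3aOSMI.

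The carrier gene Slc38a2, which encodes the sodium-coupled neutral amino acid transporter SNAT2, lies on chromosome 15 (96687392 to 96699730, minus strand). It had 618, 640 and 546 CPM in Veh, 596, 547 and 588 in rhWnt3a, and 650, 729 and 702 in rhWnt3aOSMI. All 3 rhWnt3aOSMI libraries lay above the other 6, though the lowest exceeded Veh 2 by little. The log2 difference from rhWnt3a was 0.27 (95% interval −0.029 to 0.56, edgeR adjusted p = 0.262) and that from vehicle 0.21 (−0.088 to 0.50, adjusted p = 0.324). With rhWnt3a against vehicle it was −0.059 (−0.35 to 0.24, adjusted p = 0.887). On the side of Veh 1 and on that of Veh 3, rhWnt3aOSMI exceeded rhWnt3a by 0.25 and 0.33 and vehicle by 0.16 and 0.34. The sign of these values follows from the lack of overlap. Without the 3 libraries that stood apart, the log2 differences were 0.22 from rhWnt3a (edgeR adjusted p = 0.0220, short of the fold threshold) and 0.094 from vehicle (0.283).

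The carrier gene Slc1a5, which encodes the glutamine exchanger ASCT2, lies on chromosome 7 (16781340 to 16798274, plus strand). It had 275, 314 and 312 CPM in Veh, 303, 251 and 294 in rhWnt3a, and 318, 284 and 308 in rhWnt3aOSMI. Its groups overlapped in every comparison. The log2 fold changes were −0.088 (95% interval −0.38 to 0.21), 0.10 (−0.19 to 0.40) and 0.015 (−0.28 to 0.31), with edgeR adjusted p-values of 0.815, 0.661 and 0.954. With the 3 libraries that stood apart left out these were 0.907, 0.952 and 0.957.

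Groups without overlap were thus found for 1 of the 9 genes with rhWnt3a against vehicle (Psat1), for 2 with rhWnt3aOSMI against rhWnt3a (Slc38a2 and Got2) and for 2 with rhWnt3aOSMI against vehicle (Psat1 and Slc38a2). Among all tested genes the share was 26.4%, 33.7% and 38.8%, and the counts among the 9 genes lie below these shares.

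The replicate spread differed between the 9 genes and followed a common order in 5 of them. The pooled SD of log2 CPM within groups was 0.381 for Asns, 0.343 for Got1, 0.234 for Psat1, 0.151 for Glud1 and 0.125 for Got2, and 0.140, 0.116, 0.0933 and 0.0850 for Glul, Slc1a5, Slc38a2 and Gpt2. Among 500 genes of like level, Asns and Got1 were at the 77.4 and 75.2 percentile of this SD, Psat1 at the 50.6 and Gpt2 at the 7.8 percentile. Asns stood 0.42 above its group mean in Veh 3 and 0.23 above in rhWnt3a 2, and 0.57 below in rhWnt3aOSMI 3. For Got1 the same libraries deviated by 0.45, 0.23 and −0.44, and for Psat1 by 0.16, 0.10 and −0.42. Over the 9 libraries the deviations of Asns correlated with those of Got1 (r = 0.969), Psat1 (0.960) and Got2 (0.949), as a description only, since these libraries share their deviations over many genes. With the axis of all genes the correlation was 0.941 for Got1, 0.914 for Asns, 0.851 for Glud1, 0.848 for Got2 and 0.821 for Psat1, a range above 0.8 that also held 21.6% of all tested genes. It was 0.0083 for Glul, −0.30 for Slc1a5, −0.43 for Gpt2 and −0.74 for Slc38a2.

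**Figure D4:**
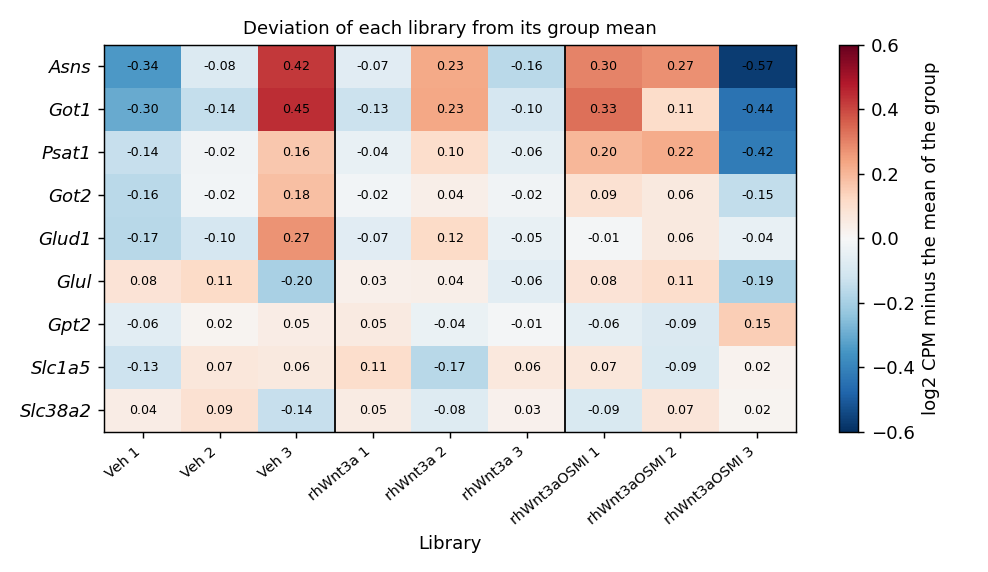
Deviation of log2 CPM from the mean of the group (colour and number) for each of the 9 genes (rows) in each library (columns). Asns, Got1, Psat1, Got2 and Glud1 lie above their group mean in Veh 3 and rhWnt3a 2 and below it in rhWnt3aOSMI 3, while Glul, Gpt2, Slc1a5 and Slc38a2 do not share this order.

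The fold changes of Got1 and Asns in the comparisons with rhWnt3aOSMI depended on these libraries. Without Veh 3, rhWnt3a 2 and rhWnt3aOSMI 3, Got1 was 0.40 higher on the log2 scale in rhWnt3aOSMI than in rhWnt3a and 0.41 higher than in vehicle (edgeR adjusted p = 0.000479 and 0.000215, both short of the fold threshold), and Asns 0.21 higher than in vehicle (0.0271). Within sides, rhWnt3aOSMI differed from vehicle by −0.22 and −0.23 for Got1 and by −0.60 and −0.38 for Asns. For Got1 the difference of rhWnt3aOSMI from rhWnt3a was −0.26 and 0.056 within sides, of opposite sign. Neither gene was called in any of the 22 alternative analyses.

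Asns and Got1 were also the 2 genes whose promoter window (250 bases before to 50 after the start, RefSeq, GRCm38.p6) held the core of the C/EBP-ATF response element, TGATGNAAN, the site known to bind ATF4. It is shown in capitals with 8 bases on each side, 5′ to 3′ on the strand that carries it.
Asns: cagccacaTGATGAAACttcccgca
Got1: ggcttgtaTGATGCAACcaatgcaa
The Asns core lies on the strand of the gene 23 bases before the start, in the window chr6:7693160-7693459. The Got1 core lies on the opposite strand 103 bases before the start, in the window chr19:43524556-43524855. Over both strands 3.95% of all windows held the core. No match was found in the windows of Glud1, Glul, Got2, Gpt2, Slc38a2 or Psat1. Slc1a5 was not among the genes of the promoter table. The search says nothing of elements outside the window or of the factor, and these genes were set beside each other after their values had been seen.

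Atf4 itself was not called. It had 402, 430 and 590 CPM in Veh, 326, 463 and 333 in rhWnt3a, and 397, 414 and 268 in rhWnt3aOSMI, and it too was highest in Veh 3 and rhWnt3a 2 within those groups and lowest in rhWnt3aOSMI 3. Its log2 fold changes were −0.34 (95% interval −0.85 to 0.16), −0.057 (−0.56 to 0.45) and −0.40 (−0.91 to 0.11). In the fit without the 3 libraries that stood apart these were −0.37 (edgeR adjusted p = 0.000124), 0.29 (0.00165) and −0.077 (0.351), none past the fold threshold, and within the 2 sides of the replicate axis they were −0.34 and −0.35, −0.30 and −0.19, and −0.63 and −0.54. Of 15 tested genes in a list of Atf4 and its stress-responsive targets, 1 was called higher with rhWnt3a (Vldlr, a lipoprotein receptor, by 0.60, edgeR adjusted p = 0.0328). In rhWnt3aOSMI against rhWnt3a 1 was called lower (Ddit4, an inhibitor of mTORC1, log2 fold change −0.69, adjusted p = 0.0159). None was called in rhWnt3aOSMI against vehicle, where 2 passed an unadjusted p under 0.05 with the fold threshold and 1 was called by DESeq2. Trib3 and Chac1, classical genes of the ATF4 response, stood at −0.31 and −0.33 with rhWnt3a and were not called. Other genes of the list lay the other way, among them Cth at 0.93 and Stc2 at 0.49, also not called. The median of the list with rhWnt3a was 0.17, against 0.037 for all tested genes.

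Among 10 other tested carriers of glutamine and neutral amino acids, none was called with rhWnt3a against vehicle or with rhWnt3aOSMI against rhWnt3a. An unadjusted p under 0.05 with the fold threshold was met by 1 and 3 of them, and DESeq2 called 1 and 2. In rhWnt3aOSMI against vehicle 2 were called higher. Slc7a11, the exchanger that releases glutamate for cystine, had 71.6, 70.0 and 60.2 CPM in Veh, 107, 65.7 and 96.6 in rhWnt3a, and 156, 155 and 130 in rhWnt3aOSMI. Its level in rhWnt3aOSMI was 2.18-fold that in vehicle (log2 fold change 1.13, SE 0.184, edgeR adjusted p = 0.00296), and all 3 libraries lay above all others. The log2 difference from rhWnt3a was 0.71 (95% interval 0.30 to 1.12, adjusted p = 0.0563). Slc6a9, the glycine carrier GLYT1, had 75.2 to 121 CPM in Veh, 66.2 to 114 in rhWnt3a and 155 to 188 in rhWnt3aOSMI, and was called higher than in vehicle by 0.81 (adjusted p = 0.0431).

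Among 10 enzymes that act on the amide group of glutamine, none was called with rhWnt3a against vehicle or with rhWnt3aOSMI against rhWnt3a (0 and 0 at an unadjusted p under 0.05 with the fold threshold, 1 and 0 by DESeq2). In rhWnt3aOSMI against vehicle 2 were called higher and 1 lower. Cad, which starts pyrimidine synthesis, was higher by 0.77 (edgeR adjusted p = 0.0412), and Pfas, an enzyme of purine synthesis, by 0.66 (adjusted p = 0.0369). Ctps2, a CTP synthase, was lower (log2 fold change −0.77, adjusted p = 0.00788), with 33.3 to 41.0 CPM in Veh, 25.1 to 29.6 in rhWnt3a and 18.9 to 25.0 in rhWnt3aOSMI. Gfpt1, which passes the amide group to fructose 6-phosphate at the entry of the hexosamine pathway, was not called, at 0.25, −0.35 and −0.10.

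Of 10 tested genes of serine, glycine and folate metabolism besides Psat1, none was called in the first 2 comparisons (1 and 1 at an unadjusted p under 0.05 with the fold threshold, 1 and 0 by DESeq2). In rhWnt3aOSMI against vehicle 1 was called, Aldh1l2, a mitochondrial folate enzyme, by 0.97 (edgeR adjusted p = 0.0370). It had 254, 286 and 182 CPM in Veh, 501, 251 and 512 in rhWnt3a, and 459, 454 and 500 in rhWnt3aOSMI, with rhWnt3a 2 inside the vehicle range. Shmt2 and Mthfd2, which stand at the head of mitochondrial folate use, were at 0.070 and −0.13 with rhWnt3a and were not called.

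Of 9 tested enzymes of proline, arginine and ornithine metabolism, 1 was called, Ass1, an enzyme of arginine synthesis, lower in rhWnt3aOSMI than in vehicle (log2 fold change −2.17, edgeR adjusted p = 0.0183). It was scarce in every library, with 11, 11 and 28 counts in Veh, 4, 8 and 7 in rhWnt3a and 4, 4 and 3 in rhWnt3aOSMI, close to the floor of 3 counts. None of 9 was called in the other 2 comparisons (2 and 0 at an unadjusted p under 0.05 with the fold threshold, 1 and 0 by DESeq2). Of 11 other transaminases and genes of the malate-aspartate shuttle none was called in any comparison (0, 2 and 4 at an unadjusted p under 0.05 with the fold threshold, and 0, 0 and 1 by DESeq2).

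Of 20 cytosolic aminoacyl-tRNA synthetases, which charge tRNA with amino acids, 1 was called. Wars, which charges tryptophan, had 115, 157 and 186 CPM in Veh, 271, 237 and 258 in rhWnt3a, and 256, 239 and 220 in rhWnt3aOSMI. All treated libraries lay above those with vehicle, and Wars was higher by 0.74 (edgeR adjusted p = 0.0254) with rhWnt3a and by 0.64 (0.0343) in rhWnt3aOSMI. In rhWnt3aOSMI against rhWnt3a none of 20 was called, with 0 at an unadjusted p under 0.05 with the fold threshold and 0 by DESeq2.

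Among all tested genes, an unadjusted p under 0.05 with the fold threshold was met by 15.4%, 16.2% and 22.8% in the 3 comparisons, and DESeq2 called 11%, 9.26% and 17.2%, the shares to set beside the counts of the lists. Of the 11 calls named in the lists, 10 were also made without the 3 libraries that stood apart, which were chosen in these same data. The exception was Ass1, at −1.55 (edgeR adjusted p = 0.0535). For each of the 11 the difference had the same sign on both sides of the replicate axis. Their groups did not overlap, so that sign was fixed in advance and lends no support. Aldh1l2, whose replicates followed the axis, stood at 0.72 (4.90e-08), with 0.89 and 1.33 within sides. More genes were called in that selection, 18.1%, 12.7% and 23.7% of all 14111 tested. Higher and lower calls in the 3 comparisons were then 1 and 0, 3 and 0, and 2 and 0 for the carriers. They were 0 and 1, 0 and 1, and 3 and 1 for the users of the amide group, and 1 and 0, 0 and 0, and 3 and 0 for serine, glycine and folate enzymes. They were 4 and 1, 1 and 2, and 3 and 1 for Atf4 and its targets, and 2 and 0, 0 and 0, and 4 and 0 for the synthetases. The proline and arginine enzymes had 1 higher call, with rhWnt3a, and the transaminases 1 higher call, in rhWnt3aOSMI against vehicle. In the comparisons with rhWnt3aOSMI, group and side cannot be told apart for these counts. Some of the calls, such as those of Psph and Cth against vehicle, had the opposite sign within both sides. Others, such as that of Slc7a11, kept their sign.

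**Figure D5:**
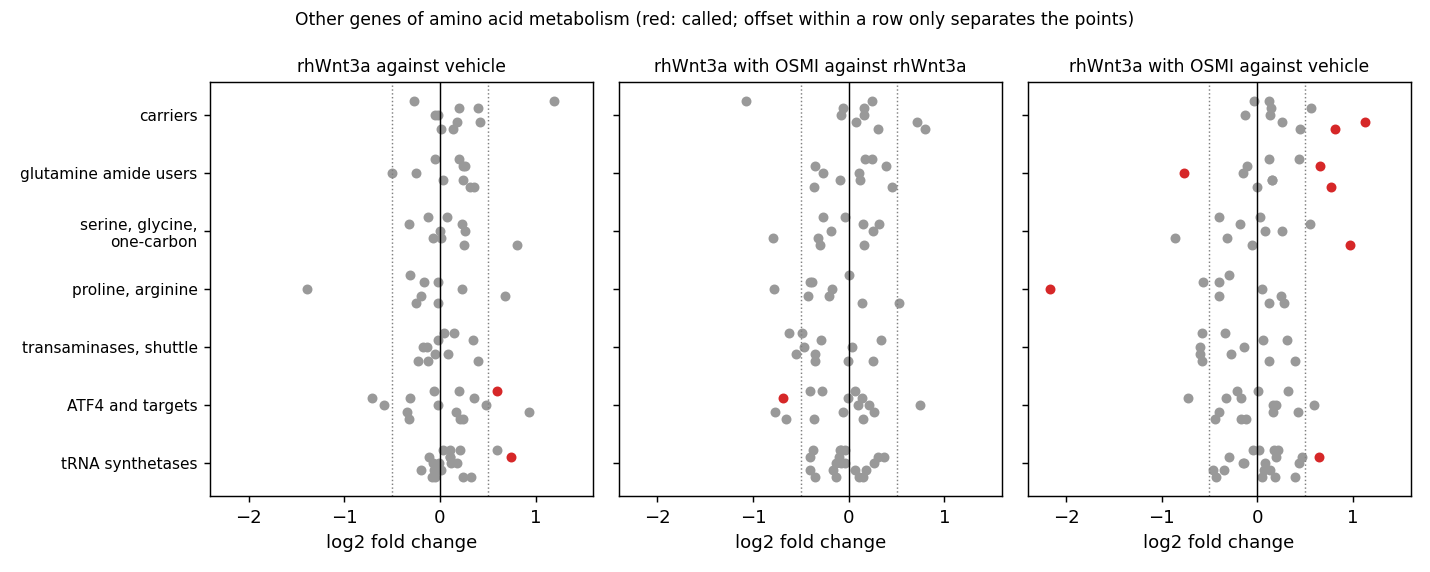
Log2 fold change (x axis) of each tested gene in 7 lists of amino acid metabolism (rows) in the 3 comparisons, with called genes in red and dotted lines at 0.5 in either direction. Red points are 2 with rhWnt3a (Vldlr and Wars), 1 with rhWnt3aOSMI against rhWnt3a (Ddit4) and 8 with rhWnt3aOSMI against vehicle.

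Over the 9 libraries, the genes whose log2 CPM followed Psat1 most closely, of 11434 compared, were Mgp, Sinhcaf and Fbxo33, with Pearson's r of 0.979, 0.979 and 0.978. Mgp, which encodes a matrix protein that restrains calcification, averaged 58.1 CPM in Veh, 423 in rhWnt3a and 300 in rhWnt3aOSMI, a far wider range than that of Psat1. Fbxo33 averaged 21.1, 28.0 and 27.3 CPM and Sinhcaf 6.88, 16.8 and 15.1 CPM. These correlations are descriptions of libraries that share group and replicate differences.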

How the data were processed

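RNA of ST2 cells was sequenced in 9 libraries (3 Veh, 3 rhWnt3a, 3 rhWnt3aOSMI). Groups and replicate numbers were taken from the sample titles. The study calls the samples of a group biological replicates but does not say how their cultures were kept apart, so p-values measure the spread between these samples. The submitters' processing notes name CASAVA, fastp, HISAT2 2.0.5, featureCounts 1.5.0-p3 and the mm10 genome. Strandedness is not given in the sources used here, so antisense reads cannot be told apart. The authors deposited a table of 43 columns with the counts of reads per gene for each library, which are whole numbers without normalization. Its FPKM columns and the columns of the authors' own comparisons (group means, fold changes, p-values and adjusted p-values) were not used. The start and end of all 9 genes in the table are those of GENCODE M21.

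Counts were filtered with filterByExpr (minimum count 10, minimum total 15), scaled by TMM and tested two-sided over all 9 libraries with edgeR 4.0.16 (glmQLFit, glmQLFTest) in R 4.3.3. P-values were adjusted by Benjamini-Hochberg over all tested genes, and the intervals are 95% intervals of the fit. CPM and RPKM were computed from the counts with the TMM factors and the gene lengths of the table. The prior count for log2 CPM was 2. The procedure was tested on simulated data with independent libraries. These lacked the replicate axis seen here, so that test does not cover its effect. DESeq2 1.42.0 and limma 3.58.1 served as alternatives, as did other scalings, filters and thresholds, a correction for gene length, a block for the replicate number and leaving out libraries. Copies of transcripts were sought with BLAST 2.17.0 (at least 97% identity over at least 100 bases). The floor of 3 counts covers counting error only.

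The 9 genes and all lists were chosen with earlier results of these data known. All 9 genes were named with their values, together with the 2 called genes of largest change per list, direction and comparison and Atf4, Phgdh and Psph. A further gene that the rule names is not reported here. For each called gene, the 3 genes most correlated with it (mean log2 CPM above 1) were named. Further genes of the lists (Gfpt1, Trib3, Chac1, Cth, Stc2, Shmt2 and Mthfd2) were named after their values were seen. Promoter windows are those of RefSeq for GRCm38.p6.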

Additional observations from a re-analysis of the deposited data

How the results depend on the processing

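Of the 9 genes, 1 was called with rhWnt3a and 1 with rhWnt3aOSMI, both against vehicle (Psat1), and the number was 0 and 0 with the replicate block, 0 and 0 at a log2 threshold of 1, and 0 to 1 in each when single libraries were left out. For rhWnt3aOSMI against rhWnt3a it was 0 throughout the 22 alternatives. With the replicate block, Psat1 had log2 fold changes of 0.80 (edgeR adjusted p = 0.0743) and 0.79 (0.0564). Whether samples with the same number share more than that number is not stated. Their deviations correlated at 0.439, −0.487 and −0.49 for rhWnt3a against vehicle, and none of the 3 comparisons had all values above 0.1. Since a single axis holds 54.8% of the variance of the deviations, these values cannot tell whether samples were paired. Psat1 was called in 15 and 16 of 22 alternatives. All tested genes called numbered 1230, 664 and 1986 in the 3 comparisons. These became 809, 233 and 1297 with the block, 2155, 2271 and 3186 at an unadjusted p, 796, 380 and 1118 at a log2 threshold of 1, and 2557, 1789 and 3351 without the 3 libraries that stood apart. For rhWnt3aOSMI against rhWnt3a they were 1481 without a count filter, 1297 by DESeq2 and 345 in a fit of 6 libraries. Leaving out single libraries gave 716 to 1506, 203 to 764 and 1218 to 2328.

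Signs turned only among values that were not called, and the cause was not tested. Gpt2 with rhWnt3a became −0.0049 with DESeq2 size factors, −0.0041 with upper-quartile scaling, −0.013 without a filter, −0.0021 with at least 10 counts in every library, −0.0050 by DESeq2 and −0.020 with 6 libraries. Psat1 in rhWnt3aOSMI against rhWnt3a became −0.019 with upper-quartile scaling, −0.020 with limma-voom and −0.0027 with the replicate block. In rhWnt3aOSMI against vehicle, Slc1a5 became −0.015 with upper-quartile scaling, and Got1 became 0.0083 with at least 10 counts, 0.0016 with limma-voom, 0.040 with 6 libraries and 0.15 with the length trend removed. Without the 3 libraries that stood apart, rhWnt3a against vehicle gave 0.022 for Glud1, 0.0063 for Got1 and 0.039 for Asns, rhWnt3aOSMI against rhWnt3a gave 0.0013 for Glul and 0.175 for Asns, and rhWnt3aOSMI against vehicle gave 0.41 for Got1, −0.0063 for Slc1a5 and 0.21 for Asns. Leaving out single libraries gave, with rhWnt3a, −0.11 to 0.12 for Glud1, −0.24 to 0.17 for Got1, −0.025 to 0.033 for Gpt2, −0.12 to 0.0065 for Slc38a2 and −0.20 to 0.20 for Asns. For rhWnt3aOSMI against rhWnt3a it gave −0.057 to 0.28 for Got1, −0.29 to 0.059 for Asns and −0.073 to 0.19 for Psat1. Against vehicle it gave −0.15 to 0.26 for Got1, −0.025 to 0.13 for Got2, −0.15 to 0.0024 for Gpt2, −0.025 to 0.093 for Slc1a5 and −0.36 to 0.022 for Asns. With 3 libraries per group, Asns and Got1 limit the comparison most, and Glul has the fewest counts.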
